A study of Mus musculus with 12 samples.

Results

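The 45 genes described here make up much of the cell's response to low oxygen, together with the enzymes of glycolysis that this response is known to drive. They were taken by name from 21771 genes in the deposited mRNA table, and all 45 were found there. They comprise 3 subunits of the hypoxia-inducible factors (HIF), 4 oxygen-sensing genes, 16 glycolytic enzymes, 4 glucose and lactate transporters, 3 enzymes that switch glycolytic flux, 4 hydroxylases that modify collagen and 11 other HIF targets. The study compared MTEC1, a mouse line labelled as medullary thymic epithelial and as wild type, with and without PAMK, the usual abbreviation for a polysaccharide of the rhizome of Atractylodes macrocephala. PAMK was given at 50 µg/ml for 12 h, whereas the series text gives the control cultures 6 h, so treatment and culture time cannot be told apart if that text is right. All cultures were kept in DMEM with 10% fetal bovine serum in 5% CO2, and no label mentions reduced oxygen. Each group had 3 libraries of total RNA (control 1 to 3 and PAMK 1 to 3) and 3 further libraries of small RNA. The line is a single established line, and the labels do not say whether each library was made from its own culture; the p-values below therefore rest on a spread that may be technical.

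In oxygen, the prolyl hydroxylases encoded by Egln1, Egln2 and Egln3 mark HIF-1α and HIF-2α, and the von Hippel-Lindau protein (Vhl) then directs them to destruction. When oxygen is scarce the α subunits persist, pair with Arnt and bind the core sequence ACGTG or GCGTG near genes for glucose uptake, glycolysis, lactate export, angiogenesis and collagen maturation. HIF control therefore acts largely on protein, which was not measured here. Glycolysis turns glucose into pyruvate, and lactate dehydrogenase A turns pyruvate into lactate, so that glycolysis can run on without oxygen.

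The deposited total RNA values were taken as FPKM, which scales fragments by transcript length and by library total. That unit is inferred and the depth behind it is unknown. Their sum per library lay between 133684 and 145879 over mRNA transcripts. Levels of the 9781 tested genes correlated between libraries at a Pearson r of 0.881 to 0.887 within control, 0.886 to 0.894 within PAMK and 0.880 to 0.891 between the groups, so no library of total RNA stood apart. Over the 36 tested genes of the 45, the same r was 0.947 to 0.977, 0.940 to 0.983 and 0.953 to 0.992. Of 13 markers of thymic epithelium, Epcam, Krt5, Krt14, Aire and Cldn4 were listed at 0 in every library, and the 13 summed to 0.742 to 0.834 FPKM in control and 0.537 to 5.51 in PAMK libraries, where Relb alone held 0.261 to 5.35. Of 9 fibroblast or mesenchymal markers none was at 0 throughout, and they summed to 517 to 671 FPKM in control and 602 to 788 in PAMK libraries. S100a4 (298 to 391) and Vim (92.5 to 253) were the largest in every library. Col3a1 held 60.2 to 79.4 FPKM, Col1a1 28.3 to 57.7, Fn1 4.32 to 27.6 and Pdgfra 0.787 to 5.45. Pdgfrb (0.242 to 0.368) and Thy1 (at most 0.0335) were low. Col1a2 ran up to 91.2 but held 0.0143 in control 1 and 0 in PAMK 1 and 3, so this list was not uniform. Defining transcripts of the labelled cell type were therefore absent or near 0, and the cells are called MTEC1 here. Haematopoietic markers (8 genes, 4 at 0 throughout) summed to 0.488 to 0.954 FPKM in control and 1.40 to 1.66 in PAMK libraries, endothelial markers (6 genes, 1 at 0 throughout) reached at most 0.0754, and the part of any of these cell types in the results was not tested. In bulk RNA, fewer cells of a type and less RNA per cell cannot be told apart.

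The promoters of the genes with the clearest differences, and of glycolytic enzymes classically controlled by HIF, are shown because the HIF core motif lies in them. Each is the window of 250 bases before a transcription start in RefSeq's GRCm38.p6 annotation, read 5′ to 3′ on the gene's strand, with every ACGTG (or CACGT, the same motif on the other strand) in capitals. The windows are Slc16a1 at chr3:104638414-104638663 (+), Slc2a1 at chr4:119108495-119108744 (+), P4ha2 at chr11:54100674-54100923 (+), Egln2 at chr7:27166803-27167052 (-), Pgk1 at chrX:106186850-106187099 (+) and Ldha at chr7:46845554-46845803 (+).
Slc16a1: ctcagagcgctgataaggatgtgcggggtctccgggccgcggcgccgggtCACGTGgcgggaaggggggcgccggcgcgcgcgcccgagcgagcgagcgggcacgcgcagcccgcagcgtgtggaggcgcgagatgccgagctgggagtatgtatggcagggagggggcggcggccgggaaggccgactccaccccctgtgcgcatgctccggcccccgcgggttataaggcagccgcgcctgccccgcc
Slc2a1: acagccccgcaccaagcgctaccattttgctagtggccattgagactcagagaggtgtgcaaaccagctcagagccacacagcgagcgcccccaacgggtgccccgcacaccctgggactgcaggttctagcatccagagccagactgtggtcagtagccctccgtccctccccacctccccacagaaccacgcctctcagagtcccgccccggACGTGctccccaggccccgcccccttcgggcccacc
P4ha2: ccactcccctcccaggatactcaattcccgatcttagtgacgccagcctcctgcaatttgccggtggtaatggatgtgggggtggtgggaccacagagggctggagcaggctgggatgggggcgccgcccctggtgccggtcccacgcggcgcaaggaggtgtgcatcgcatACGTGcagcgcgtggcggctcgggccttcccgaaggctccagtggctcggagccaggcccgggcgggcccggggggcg
Egln2: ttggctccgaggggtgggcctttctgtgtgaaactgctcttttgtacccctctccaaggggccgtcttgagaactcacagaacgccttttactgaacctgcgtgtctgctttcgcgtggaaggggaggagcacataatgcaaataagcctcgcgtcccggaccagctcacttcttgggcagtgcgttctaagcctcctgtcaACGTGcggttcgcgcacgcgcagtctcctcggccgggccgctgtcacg
Pgk1: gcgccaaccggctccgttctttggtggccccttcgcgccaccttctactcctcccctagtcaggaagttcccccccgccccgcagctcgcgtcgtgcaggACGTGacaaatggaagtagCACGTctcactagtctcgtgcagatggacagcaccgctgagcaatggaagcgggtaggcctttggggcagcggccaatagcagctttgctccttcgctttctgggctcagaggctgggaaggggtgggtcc
Ldha: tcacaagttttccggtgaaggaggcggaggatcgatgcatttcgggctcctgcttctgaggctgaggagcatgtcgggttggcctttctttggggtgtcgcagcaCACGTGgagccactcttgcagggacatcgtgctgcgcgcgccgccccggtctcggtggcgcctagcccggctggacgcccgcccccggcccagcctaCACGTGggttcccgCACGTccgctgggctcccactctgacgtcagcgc
The ACGTG in the Slc2a1 window began 36 bases before the start, that in Egln2 48 bases and that in P4ha2 78 bases. Slc16a1 held 1 CACGTG hexamer and Ldha 2, each of which reads as ACGTG on both strands. The 40 genes with an entry (all but Bhlhe40, Slc2a3, Ndrg1, Epas1 and Plod2) had 59 windows in RefSeq. ACGTG, searched on both strands, was present in 26 of these 59 windows (44.1%) and in 5444 of 32851 windows of all genes (16.6%). By gene, 22 of 40 held it in at least 1 window (55%), against 18.5% of all genes. It was present in 3 of 3 transporters, 3 of 4 oxygen-sensing genes, 7 of 16 glycolytic enzymes, 5 of 9 other targets, 2 of 3 collagen hydroxylases, 1 of 2 HIF subunits and 1 of 3 switch enzymes. No window of Eno1, Eno2 or Vhl held it, although these too are described below for differences between the groups. The alternative core GCGTG was present in 52.5% of the members' windows and 28.2% of all, and CACGTG, an E-box that contains ACGTG, in 8.47% and 6.02%. The members' windows were also richer in G and C, with a median of 60.4% against 52.4%, and the motif shares were not adjusted for that. Such a match shows letters, not binding.

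miR-210, the microRNA best known as a HIF target, was read in the small RNA libraries. Both arms of its hairpin are shown with the seed (bases 2 to 8) in capitals, and the deposited sequences were identical to RefSeq's. The 3p arm lies at chr7:141221407-141221428 (-) and the 5p arm at chr7:141221445-141221466 (-) in GRCm38.p6.
mmu-miR-210-3p: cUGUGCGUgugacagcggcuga
mmu-miR-210-5p: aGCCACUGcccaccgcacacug
The seeds of the arms differ, so the arms form separate target families.

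The 45 genes ran from abundant glycolytic enzymes to hypoxia markers that were hardly detected. By mean FPKM over the 6 libraries, the coding transcripts of Pkm, Ldha, Eno1, Pgam1, Aldoa, Pgk1 and Tpi1 averaged above 100, with Slc16a1 next. At the other end, 9 genes fell below the mean of 0.5 FPKM required for testing: Epas1 (HIF-2α), Egln3, Aldoc, Gapdh, Slc2a3, Pfkfb4, Adm, Car12 and Ankrd37. Among these, the HIF-2α gene Epas1 was listed at 0 in 4 libraries and at most 0.00779 FPKM, and the peptide hormone gene Adm at no more than 0.0702. Car9, the carbonic anhydrase often used as a stain for hypoxic tissue, held only 0.378 to 0.835 FPKM.

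**Figure D1:**
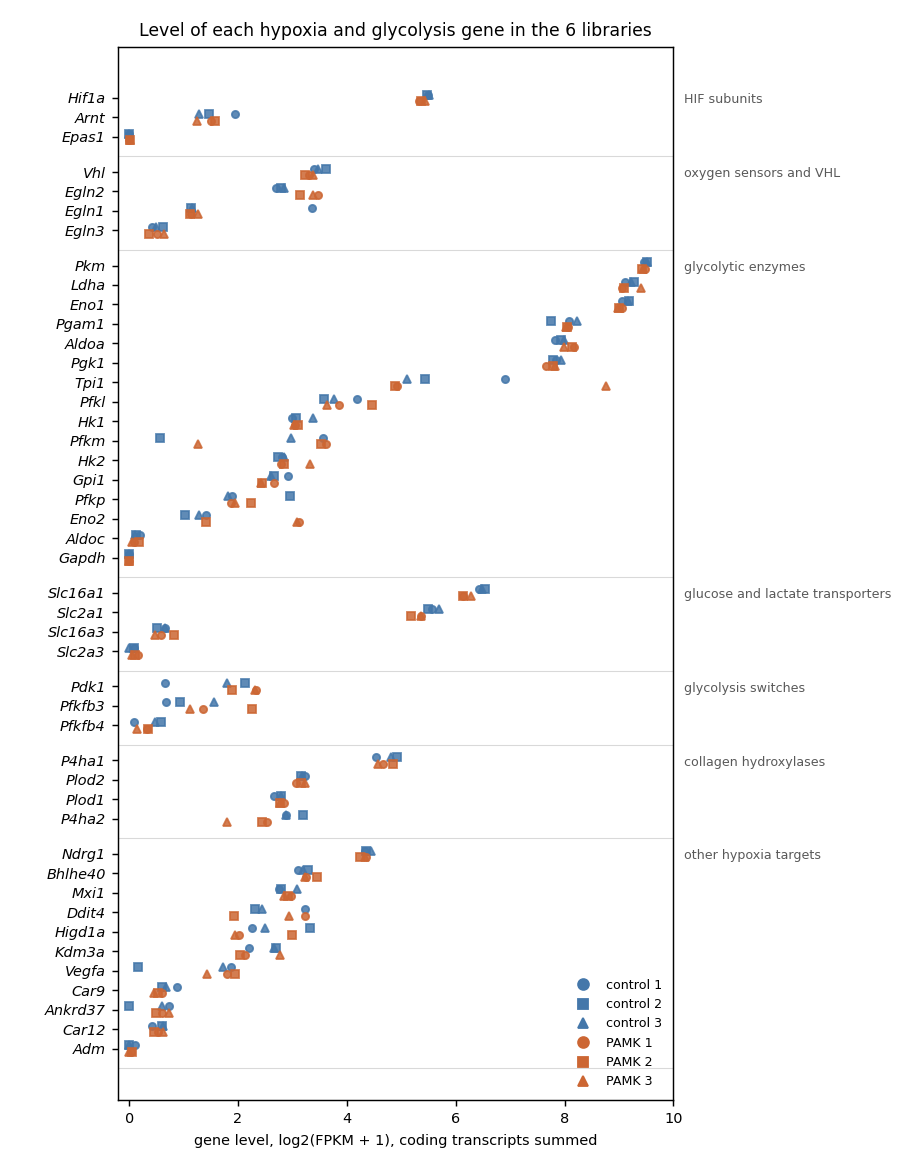
Level of each of the 45 genes in the 6 total RNA libraries, as log2(FPKM + 1) with coding transcripts summed, grouped by role and ordered by mean, with control in blue, PAMK in orange and a marker shape for each library number. Pkm, Ldha and Eno1 lie furthest right, Gapdh and Epas1 lie at 0, and Tpi1 and Pfkm show the libraries spread apart.

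None of the 36 tested genes passed an adjusted p of 0.05 (limma on log2(FPKM + 1), Benjamini-Hochberg over 9781 genes), against 7 of 9781 genes in all (0.0716%). At an unadjusted p under 0.05, Eno1, Slc16a1, Slc2a1 and P4ha2 were lower in PAMK cells (4 genes, against 2.71% of all genes) and Egln2, Aldoa and Eno2 were higher (3 genes, against 7.30%). All 3 PAMK values lay below all 3 control values for 6 genes (Hif1a, Vhl, Eno1, Slc2a1, Slc16a1 and P4ha2, against 5.40% of all genes) and above them for 2 (Egln2 and Aldoa, against 14.1%). Counted by direction alone, 20 of 36 had a negative fold change, against 39.5% of all genes. Their median log2 fold change was -0.04, against 0.06 over all genes tested, where the sign of a fold change is PAMK minus control throughout. These medians depend on the scaling of libraries: with equal library medians, abundant genes shifted by -0.12 on the log2 scale, the median of the tested members became -0.16 and that of all genes -0.03. With that scaling 9 of the 36 tested members were lower and 1 higher at an unadjusted p under 0.05, against 7.55% and 3.51% of all genes, where 2.71% and 7.30% were lower and higher without it. With quantile normalization 6 were lower and 2 higher, against 5.28% and 4.35% of all genes. None passed the adjusted threshold under either scaling.

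**Figure D2:**
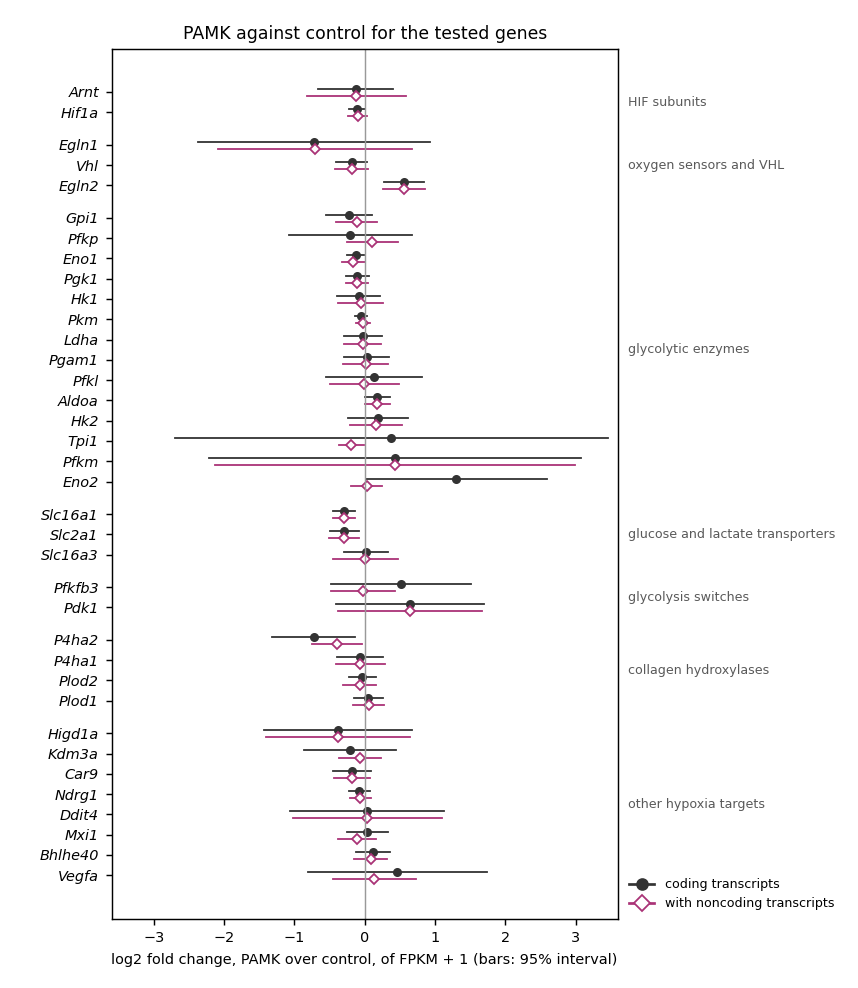
Log2 fold change of FPKM + 1, PAMK over control, for the tested genes by role, with 95% intervals from limma. Filled circles use coding transcripts, and open diamonds add the noncoding transcripts listed under the gene's name on either strand. Egln2 lies to the right of 0, Slc16a1, Slc2a1 and P4ha2 to the left, and the wide intervals of Tpi1 and Eno2 shrink when noncoding transcripts are added.

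The main HIF subunit, Hif1a, was slightly lower in all PAMK libraries without passing the test. Hif1a (chromosome 12, positions 73901375 to 73947530 as deposited, where the build is not stated but all 45 genes overlap the RefSeq GRCm38.p6 gene of their name) encodes HIF-1α and held 44.0, 43.1 and 44.7 FPKM in control 1 to 3 and 39.3, 40.4 and 42.5 in PAMK 1 to 3. The groups did not overlap. The log2 fold change was -0.11 ± 0.0476 (SE) with limma's adjusted p of 0.531. Arnt, the shared partner of the α subunits, held 2.87, 1.75 and 1.45 FPKM in control and 1.83, 1.98 and 1.36 in PAMK libraries, with the groups overlapping (adjusted p of 0.853 in limma). Its 95% interval was wide, from -0.67 to 0.41.

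Among the oxygen sensors, Egln2 was the one whose groups separated upward. Egln2 (PHD1, a prolyl hydroxylase; chromosome 7, positions 27158658 to 27166802) held 5.45, 5.89 and 6.17 FPKM in control and 10.1, 7.82 and 9.43 in PAMK libraries. Every PAMK library exceeded every control library, at means of 5.84 ± 0.359 (SD, n = 3) and 9.11 ± 1.16 (SD, n = 3). On the log2(FPKM + 1) scale the difference was 0.56 ± 0.113 (SE, 95% interval 0.27 to 0.85), with limma's adjusted p of 0.282. Nearly all of it came from the transcript ENSMUST00000080058, and no noncoding transcript of Egln2 was in the lncRNA table. Vhl, which recognises hydroxylated HIF-α, held 9.52, 11.2 and 10.1 FPKM in control and 8.91, 8.41 and 9.38 in PAMK libraries. It was lower in every PAMK library, by -0.19 ± 0.0862 (SE) on the log2 scale, with an adjusted p of 0.539 in limma. Egln1 (PHD2), regarded as the main HIF hydroxylase, held 9.30 FPKM in control 1 and between 1.16 and 1.40 in the other 5 libraries, so its log2 fold change of -0.72 ± 0.651 (SE, adjusted p of 0.726 in limma) rested on 1 library and was 0.02 (± 0.110 SE, adjusted p of 0.949) without it. Egln3 (PHD3), itself a HIF target, stayed between 0.284 and 0.550 FPKM and was not tested.

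In coding transcripts the glycolytic enzymes split evenly in direction: 7 of the 14 tested had a negative and 7 a positive log2 fold change, with a median of 0.00. Over all genes 39.5% were negative and the median was 0.06. The median of the enzymes was -0.12 with equal library medians and -0.01 with libraries scaled to a common total, so its sign depends on the scaling. With noncoding transcripts added, 8 of 15 enzymes, now with Gapdh, were negative and the median was -0.004. Over the 9781 genes tested on coding transcripts, 3879 were negative by that sum. Tpi1 went from 0.38 to -0.19 and Eno2 from 1.30 to 0.03. Summed over the 16 enzymes, coding transcripts reached 2686, 2690.3 and 2770.1 FPKM in control and 2613, 2581 and 3086 in PAMK libraries, which is 2.01%, 1.91% and 1.91% and then 1.79%, 1.77% and 2.17% of all mRNA FPKM. PAMK 3 was the highest of the 6 and PAMK 1 and 2 the lowest. Coding Tpi1 alone, described below, held 435 FPKM in PAMK 3 and 28.7 to 119 in the other libraries. With noncoding transcripts added, the sums were 3409, 3409 and 3522 in control and 3325, 3283 and 3382 in PAMK libraries, and PAMK 3 then lay below all controls.

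Pkm and Ldha, the enzymes that make pyruvate and convert it to lactate, were the most abundant of the 45. Pkm (chromosome 9, positions 59656368 to 59679375) held 703, 733 and 728 FPKM in control and 711, 683 and 693 in PAMK libraries, with overlapping groups and a log2 fold change of -0.05 ± 0.0360 (SE, adjusted p of 0.666 in limma). Its 95% interval ran from -0.14 to 0.04. Ldha (chromosome 7, positions 46841475 to 46855627) held 554, 619.9 and 596 FPKM in control and 534, 542 and 674 in PAMK libraries, and the groups overlapped (log2 fold change -0.02, 95% interval -0.29 to 0.25, adjusted p of 0.952 in limma).

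Eno1 and Aldoa separated in opposite directions. Eno1, the enolase that makes phosphoenolpyruvate (chromosome 4, positions 150236721 to 150248879), held 533, 579 and 572 FPKM in control and 531, 510.3 and 502 in PAMK libraries. The groups touched closely, with PAMK 1 just under control 1, and the means were 561 ± 24.9 and 514 ± 15.2 (SD, n = 3 each). The log2 fold change was -0.13 ± 0.0481 (SE, adjusted p of 0.496 in limma). It was -0.25 with equal library medians and -0.06 with quantile normalization. Eno1b, a near-identical copy of Eno1, held 273, 221 and 293 FPKM in control and 261, 271 and 300.04 in PAMK libraries. How reads were divided between the copies is not known, so both levels and the separation of Eno1 are uncertain. Aldoa, the aldolase that splits fructose 1,6-bisphosphate (chromosome 7, positions 126795234 to 126809108), held 226, 245 and 253.4 FPKM in control and 287, 279.7 and 253.6 in PAMK libraries. All PAMK values were higher, PAMK 3 only just, and the log2 fold change was 0.18 ± 0.0698 (SE, adjusted p of 0.498 in limma), or 0.06 with equal library medians.

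The remaining enzymes of the pathway gave no separate groups in coding transcripts. The abundant Pgk1 and Pgam1 (phosphoglycerate kinase and mutase) spanned 201 to 245 and 214 to 297 FPKM, with log2 fold changes of -0.10 and 0.03. Hk1 and Hk2, the hexokinases that trap glucose, lay between 7.0 and 9.39 and between 5.67 and 9.05 FPKM, the top of Hk2 being PAMK 3. Gpi1, the glucose-6-phosphate isomerase, ran from 4.35 to 6.55 FPKM with a log2 fold change of -0.22 (adjusted p of 0.611 in limma). Of the phosphofructokinase genes, Pfkm ran from 0.487 FPKM in control 2 to 11.2 in PAMK 1 and had no noncoding transcript listed. Coding transcripts of Pfkl and Pfkp ran from 10.9 to 20.9 and from 2.52 to 6.73. With noncoding transcripts added, Pfkl ran from 16.3 to 24.9 FPKM and Pfkp from 12.0 to 17.5. Aldoc stayed at or below 0.143 FPKM.

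For several enzymes the values of coding and noncoding transcripts of a gene moved against each other between libraries, as in Tpi1. Coding transcripts of Tpi1, the triosephosphate isomerase (chromosome 6, positions 124810586 to 124814296), held 119, 42.1 and 33.5 FPKM in control and 29.4, 28.7 and 435 in PAMK libraries. PAMK 3 stood far above the rest. The transcript ENSMUST00000154883, listed in the lncRNA table under Tpi1, held 352, 505 and 507 FPKM in control, 444 and 417 in PAMK 1 and 2 and 1.17 in PAMK 3, the mirror image of the coding transcript ENSMUST00000239432 (434 FPKM in PAMK 3 and 19.4 to 69.8 elsewhere). Noncoding transcripts thus took 75.4%, 92.4%, 93.9%, 93.9% and 93.7% of Tpi1 in the first 5 libraries and 3.70% in PAMK 3. Added together, all transcripts listed under Tpi1 held 483, 557 and 548 FPKM in control and 482, 454 and 451 in PAMK libraries. Every PAMK sum was then below every control sum (PAMK 1 only just), by -0.19 ± 0.0703 (SE) on the log2 scale with limma's adjusted p of 0.496.

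Eno2, the enolase of neurons, gave a similar picture. Its coding transcripts held 1.68, 1.04 and 1.42 FPKM in control and 7.75, 1.67 and 7.48 in PAMK libraries, with PAMK 2 inside the control range and a log2 fold change of 1.30 ± 0.509 (SE, adjusted p of 0.498 in limma). The noncoding ENSMUST00000125436 held 7.47, 8.16 and 8.47 FPKM in control and 7.65 in PAMK 2, and was listed at 0 in PAMK 1 and 3. With noncoding transcripts added, Eno2 held 9.86, 9.56 and 10.3 FPKM in control and 11.1, 10.0 and 9.30 in PAMK libraries, and its fold change was 0.03 ± 0.0897 (SE, adjusted p of 0.935 in limma). The higher coding value of Eno2 in PAMK cells was therefore not seen in the gene as a whole.

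**Figure D3:**
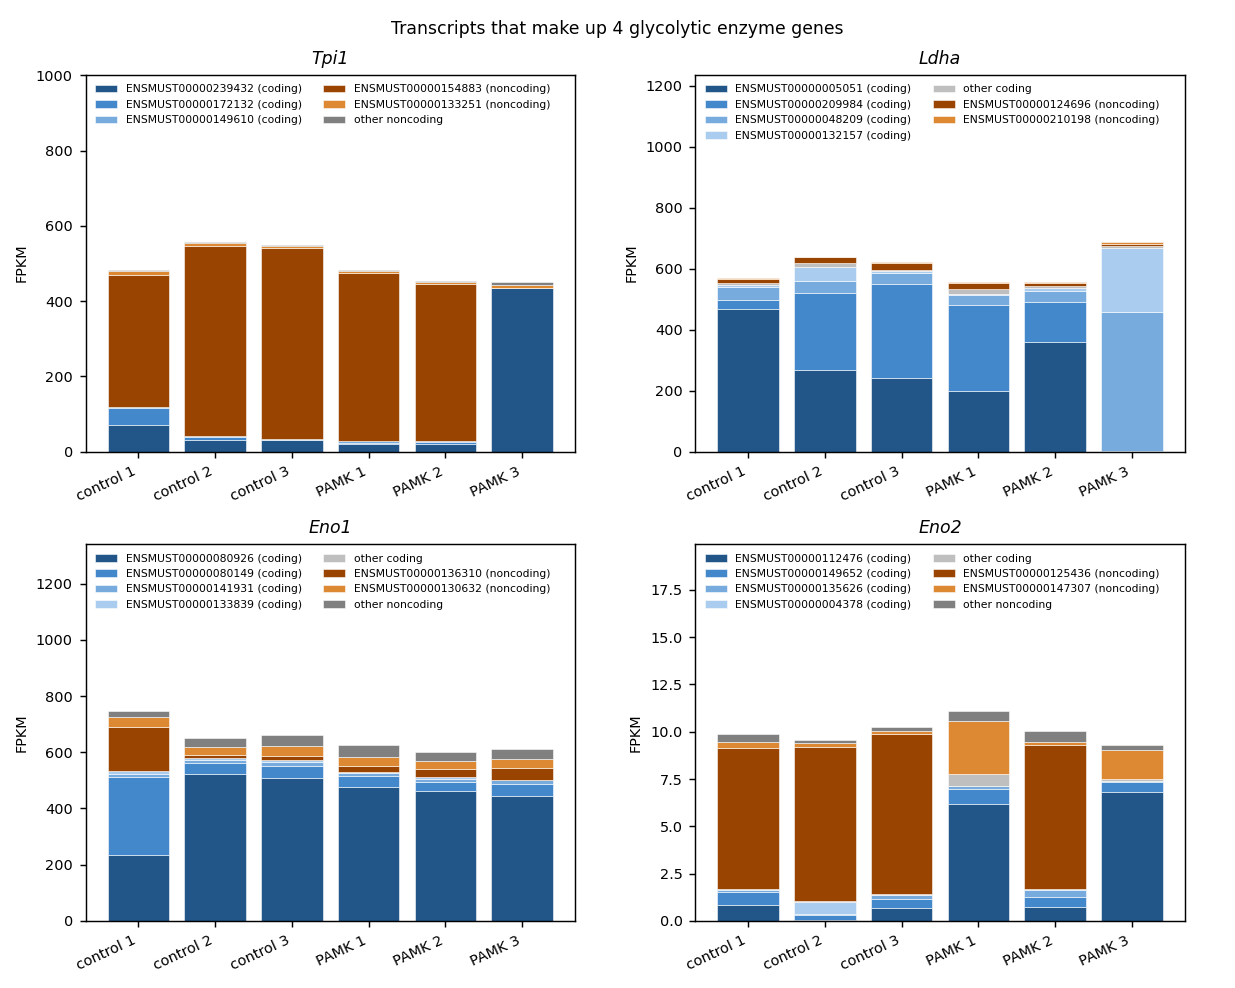
FPKM of the main transcripts of Tpi1, Ldha, Eno1 and Eno2 stacked for each library, with coding transcripts in blues and light grey and noncoding ones in browns and dark grey, and a separate FPKM axis for each gene. The split among transcripts changes from library to library, for example in PAMK 3 for Tpi1 and Ldha, while the height of the Tpi1 stack stays between 451 and 557 FPKM.

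Ldha and Eno1 differed between libraries in which coding transcript held the gene. In Ldha, ENSMUST00000005051 took 82.4% of the gene in control 1, 41.7% and 39.0% in control 2 and 3, 36.0% and 64.9% in PAMK 1 and 2, and 0% in PAMK 3. In PAMK 3 the gene was instead assigned to ENSMUST00000048209 (66.5%) and ENSMUST00000132157 (30.8%). In Eno1, ENSMUST00000080926 took 31.2% in control 1 and 72.7% to 80.4% in the other 5 libraries. Pkm was steady by comparison, with ENSMUST00000034834 at 83.1% to 87.6% in all 6. Over the tested genes with several coding transcripts, the leading transcript differed between libraries in 8 of 29 members (27.6%: Eno1, Eno2, Kdm3a, Ldha, P4ha2, Pfkfb3, Slc16a3 and Vegfa), against 45.3% of such genes overall. The highest control library exceeded 2 times the lowest in 9 of 36 members (32.2% of all genes) and the highest PAMK library did so in 6 (29.8%). With noncoding transcripts added these were 7 and 5 of 39 members (24.6% and 21.9% of all genes). Why the split among transcripts moved was not tested.

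The comparison of groups was therefore repeated with the noncoding transcripts listed under each gene's name added, which left 39 members tested of 10700 genes. Strand was not considered, and in Egln1, Hk2, Tpi1, Pkm and P4ha1 an added transcript lay on the strand opposite to the gene. In Egln1 it took 13.7% to 52.3% of the sum, and in Tpi1 it held 7.65 FPKM in PAMK 3 and 0 elsewhere. None passed the adjusted threshold (0.0841% of all genes did), 4 were lower at an unadjusted p under 0.05 (Tpi1, Slc2a1, Slc16a1 and P4ha2, against 2.69% of all genes) and 3 were higher (Egln2, Aldoa and Gapdh, against 6.84%). Eno1 held 745, 652 and 661 FPKM in control and 626, 602 and 612 in PAMK libraries by this sum, still without overlap (log2 fold change -0.16 ± 0.0638 SE, adjusted p of 0.522 in limma).

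Gapdh, the dehydrogenase that most cells express heavily, was listed at 0.000249 FPKM or less in every library, so its coding value may be a failed estimate rather than a level. Only noncoding Gapdh transcripts carried a value, namely ENSMUST00000147954 at 44.2 and 38.7 FPKM in PAMK 2 and 3, 1.67 in control 3 and 0 elsewhere, and ENSMUST00000192506 at up to 9.72 FPKM in PAMK 1. Their sum gave 4.21, 2.18 and 1.70 FPKM in control and 9.72, 44.2 and 38.8 in PAMK libraries. No expression difference of Gapdh can be drawn from values so far below its neighbours in the pathway.

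The main glucose and lactate transporters were both lower in every PAMK library, by similar amounts. Slc16a1 (MCT1, which carries lactate and pyruvate across the membrane; chromosome 3, positions 104638668 to 104658462) held 84.6, 91.6 and 88.2 FPKM in control and 69.6, 68.9 and 76.6 in PAMK libraries. All PAMK values lay below all controls, at means of 88.1 ± 3.5 and 71.7 ± 4.22 (SD, n = 3 each). The log2 fold change was -0.29 ± 0.0598 (SE, 95% interval -0.45 to -0.14) with limma's adjusted p of 0.282. Slc2a1 (GLUT1, the basal glucose transporter; chromosome 4, positions 119108711 to 119137983) held 46.2, 44.1 and 50.8 FPKM in control and 39.9, 35.0 and 40.0 in PAMK libraries. Here too the groups did not overlap, and the log2 fold change was -0.29 ± 0.0831 (SE, 95% interval -0.50 to -0.08, adjusted p of 0.387 in limma). Neither gene had a noncoding transcript in the lncRNA table, and across the 17 alternative settings the fold change ran from -0.41 to -0.27 for Slc16a1 and from -0.41 to -0.23 for Slc2a1. Slc16a3 (MCT4, the lactate exporter that HIF induces) lay at 0.391 to 0.779 FPKM and Slc2a3 (GLUT3) at 0 to 0.123.

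**Figure D4:**
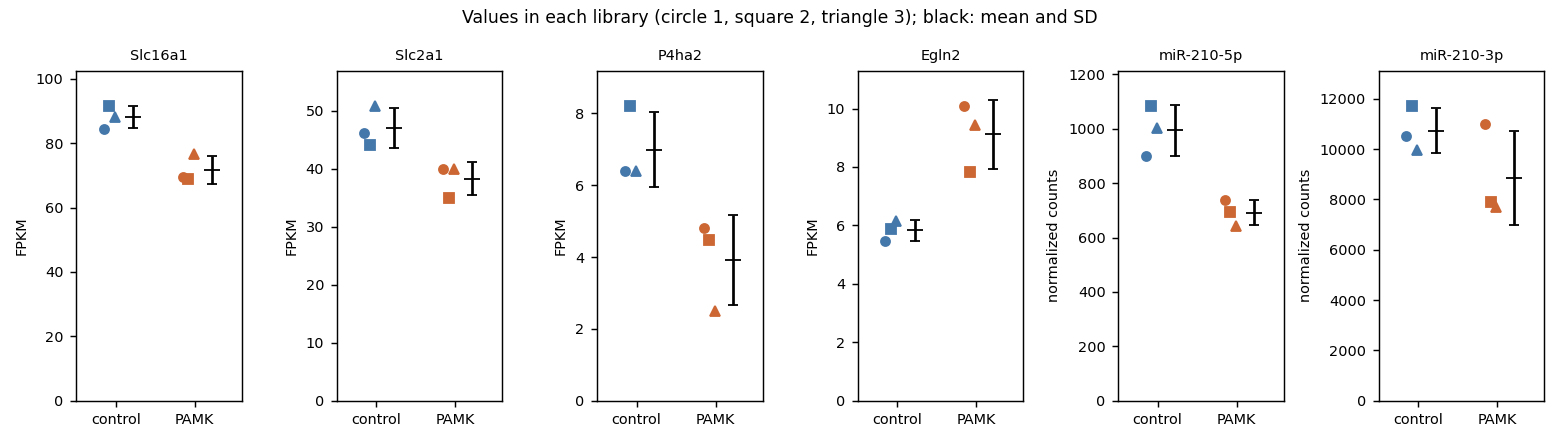
Values in each library, with the mean and SD (n = 3) in black, for Slc16a1, Slc2a1, P4ha2 and Egln2 in FPKM and for the miR-210 arms in normalized counts, each axis starting at 0. The groups separate in every panel except miR-210-3p, where PAMK 1 lies among the controls.

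Of the enzymes that switch glycolytic flux, none gave separate groups. Pdk1, the kinase that holds pyruvate back from mitochondria, held 0.579, 3.38 and 2.49 FPKM in control and 4.04, 2.72 and 3.94 in PAMK libraries, with control 1 far below the rest. Its log2 fold change was 0.65 ± 0.417 (SE, adjusted p of 0.648 in limma), or 0.21 without that library. Pfkfb3, which makes the activator of phosphofructokinase, held 0.589, 0.902 and 1.96 FPKM in control and 1.55, 3.77 and 1.16 in PAMK libraries, and the groups overlapped. Its log2 fold change of 0.52 became -0.02 with noncoding transcripts added. Pfkfb4 stayed at 0.0657 to 0.493 FPKM.

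Among the hydroxylases that mature collagen, P4ha2 was lower in all PAMK libraries and the other genes were level. P4ha2, a prolyl 4-hydroxylase subunit (chromosome 11, positions 54100095 to 54131662), held 6.38, 8.20 and 6.38 FPKM in control and 4.81, 4.46 and 2.50 in PAMK libraries. The groups did not overlap, and PAMK 3 was the lowest. The means were 6.99 ± 1.05 and 3.92 ± 1.25 (SD, n = 3 each), with a log2 fold change of -0.73 ± 0.233 (SE, adjusted p of 0.438 in limma). With noncoding transcripts added, P4ha2 held 10.3, 13.4 and 14.1 against 9.92, 9.59 and 8.30 FPKM, still without overlap, and the fold change shrank to -0.39 ± 0.141 (SE, adjusted p of 0.496 in limma). P4ha1 held 22.1, 29.3 and 26.9 FPKM in control and 24.3, 27.6 and 22.7 in PAMK libraries. Plod2, a lysyl hydroxylase, held 8.41, 7.91 and 8.03 against 7.41, 7.90 and 8.40 FPKM, and Plod1 ran from 5.32 to 6.21, so for these the groups overlapped.

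The other hypoxia targets split evenly, with 4 of the 8 tested on each side of 0 and a median of -0.02. Over all genes 39.5% lay below 0 and the median was 0.06. With equal library medians the median of these targets was -0.13, against -0.03 over all genes. With noncoding transcripts added, 6 of 10 lay below 0, against 3879 of the 9781 genes tested on coding transcripts. Those 9781 leave out Car12 and Ankrd37, which are among the 10. Ndrg1, a stress-response gene, held 19.2, 19.5 and 20.7 FPKM in control and 19.3, 18.0 and 19.1 in PAMK libraries. Bhlhe40 (DEC1, a repressor) held 7.62, 8.80 and 8.15 against 8.56, 9.90 and 8.39 FPKM. In both the groups overlapped, with log2 fold changes of -0.07 and 0.11 and adjusted p-values of 0.702 and 0.716 in limma. Coding transcripts of Vegfa, the angiogenic factor, ran from 0.120 FPKM in control 2 to 2.83 in PAMK 2, and without its low control 2 the groups still overlapped. Noncoding transcripts took 94.8% of Vegfa in control 2. With them added, Vegfa ran from 2.29 to 4.58 FPKM, again with overlapping groups (log2 fold change 0.14). Ddit4, an inhibitor of mTOR signalling, ran from 2.81 to 8.44 FPKM and Higd1a, which encodes a mitochondrial protein, from 2.83 to 8.98. The histone demethylase Kdm3a ran from 3.10 to 5.83 and Mxi1, a MYC antagonist, from 5.75 to 7.48 FPKM. In coding transcripts Car12, a carbonic anhydrase, lay at 0.337 to 0.546 and Ankrd37 at 0 to 0.658 FPKM, both too low on average to be tested. With noncoding transcripts added, both could be tested. Car12 then held 0.395, 0.553 and 0.637 FPKM in control and 0.770, 0.675 and 0.697 in PAMK libraries. All its PAMK values were higher, as for 13.0% of all genes by that sum (log2 fold change 0.17 ± 0.0904 SE, adjusted p of 0.60 in limma). Ankrd37 ran from 1.01 to 1.62 FPKM by that sum with overlapping groups (-0.04 ± 0.126 SE, adjusted p of 0.935 in limma).

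Single transcripts of the 45 genes gave no call either: 0 of 69 tested passed, against 30 of 14728 transcripts (0.204%; limma, adjusted over all transcripts). The smallest p-values belonged to the lone Slc16a1 transcript ENSMUST00000046212 (log2 fold change -0.29, adjusted p of 0.377 in limma) and to Egln2's ENSMUST00000080058 (0.57, adjusted p of 0.389). Next came a minor Pkm transcript, ENSMUST00000215623, with 1.38, 3.73 and 0.0293 FPKM in control and 8.48, 21.4 and 13.9 in PAMK libraries. All its PAMK values were higher (2.70 ± 0.642 SE on the log2 scale, adjusted p of 0.444), although Pkm as a whole was level. A minor Eno1 transcript, ENSMUST00000133839, held 8.61, 7.19 and 7.0 FPKM against 3.57, 4.59 and 1.75, all lower (-1.06 ± 0.288 SE, adjusted p of 0.519). Without control 2, 30 of 14728 transcripts passed (0.204%), of which 1 belonged to a member. It was the Pkm transcript ENSMUST00000217353 (limma's adjusted p of 0.0408, log2 fold change -3.94), which held 20.7 and 26.8 FPKM in control 1 and 3, 0.421 in control 2 and 0.400 to 1.05 in PAMK libraries.

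Beyond the 45, further genes of the pathway were taken from 4 lists. Of 34 tested HIF pathway genes and targets, none passed the adjusted threshold, and 4 were lower and 2 higher at an unadjusted p under 0.05 (2.71% and 7.30% of all genes). The smallest p was that of Bnip3, which promotes removal of mitochondria and is induced by HIF. It held 56.3, 53.3 and 56.2 FPKM in control and 35.0, 32.3 and 30.0 in PAMK libraries, so the groups lay far apart (log2 fold change -0.75 ± 0.0692 SE, adjusted p of 0.0854 in limma). Its relative Bnip3l held 18.2, 18.2 and 18.6 FPKM in control and 14.1, 14.9 and 15.6 in PAMK libraries, again without overlap (-0.29 ± 0.0589 SE, adjusted p of 0.284). The transferrin receptor gene Tfrc (187 to 191 against 163 to 173 FPKM) and the phosphoglucomutase gene Pgm1 (43.2 to 44.4 against 38.1 to 40.5 FPKM) were lower in all PAMK libraries, with adjusted p-values of 0.305 and 0.413 in limma. The haem oxygenase gene Hmox1 (169 to 179 against 198 to 212 FPKM) was higher in all, with limma's adjusted p of 0.268.

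Of 15 tested isozymes and neighbours of glycolysis, 0 were lower and 3 higher at an unadjusted p under 0.05 (2.71% and 7.30% of all genes), and none passed the adjusted threshold. They were Eno3, the muscle enolase (16.1, 18.0 and 19.0 FPKM against 21.1, 21.4 and 20.6), Adpgk, the ADP-dependent glucokinase (1.01, 1.48 and 4.32 against 5.20, 6.15 and 5.75), and Bsg, the chaperone that carries MCT1 to the membrane (88.6, 105 and 144 against 149, 153 and 152). In all of them each PAMK library exceeded each control library, as in 14.1% of all genes, with limma's adjusted p-values of 0.423, 0.438 and 0.498. With noncoding transcripts added, 16 genes of this list were tested, of which 1 was lower (Pgp) and 5 were higher (Adpgk, Eno3, Bpgm, Tigar and Bsg) at an unadjusted p under 0.05, against 2.69% and 6.84% of all genes. Bsg and its client Slc16a1 thus lay on opposite sides of 0. Of 12 tested genes of pyruvate entry and the pyruvate dehydrogenase complex, 0 differed in either direction at that level. Among 8 tested pentose phosphate enzymes, Pgd alone did, with 11.0, 0 and 0 FPKM in control and 15.6, 12.5 and 14.9 in PAMK libraries (adjusted p of 0.492 in limma), where the 0 values of an enzyme that most cells use may be failed estimates.

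The 5p arm of miR-210, whose sequence is shown above, was lower in all PAMK libraries, and the more abundant 3p arm was not separated. miR-210-5p held 898, 1084 and 1001 normalized counts in control and 737, 693 and 644 in PAMK libraries, a log2 fold change of -0.52 ± 0.122 (SE, 95% interval -0.80 to -0.24, adjusted p of 0.164 in limma). No small RNA passed the adjusted threshold (0 of 479, 0.00%), and 15.7% had an unadjusted p under 0.05. All 3 PAMK values lay below all controls for 10.4% of them. miR-210-3p held 10514, 11711 and 9960 normalized counts in control and 10986, 7880 and 7686 in PAMK libraries, where PAMK 1 lay among the controls (-0.29 ± 0.157 SE, adjusted p of 0.357). The 3p to 5p ratio was 11.7, 10.8 and 9.95 in control and 14.9, 11.4 and 11.9 in PAMK libraries, so the 3p arm was the dominant one everywhere. PAMK 1 stood apart among the small RNA libraries, correlating at 0.951 and 0.955 with PAMK 2 and 3, which correlated with each other at 0.986. Without it, 134 small RNAs passed the adjusted threshold, including both arms (adjusted p of 0.00696 for each, log2 fold changes of -0.57 for 5p and -0.46 for 3p), a test with 2 PAMK libraries.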

How the data were processed

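Per the labels' protocols, total RNA was depleted of ribosomal RNA and sequenced in pairs (NovaSeq). HISAT2, StringTie, cutadapt and FastQC appear in the submitters' processing notes, without versions. The deposited total RNA values, called normalized counts in the file headers, were taken as FPKM from their layout. No source states the genome build or annotation. The deposited small RNA signal came from TruSeq libraries and the ACGT101-miR program, per the labels' protocols, and its normalization is not stated. A placeholder of 0.0001 FPKM was set to 0, and transcripts were summed by gene name without regard to strand. Means over the 6 libraries had to reach 0.5 FPKM (9781 genes, 14728 transcripts) or 10 normalized counts (479 small RNAs). Values were tested as log2 of the value plus 1, which understates changes of low genes. Two-sided tests used limma 3.58.1 (R 4.3.3, eBayes with trend), adjusted by Benjamini-Hochberg over all features of a table, at 0.05. Depth is unknown, so no counting interval was given. The steps were tested on simulated data, where 43% of 2-fold and 77% of 8-fold changes of genes were called. For transcripts these shares were 31% and 49%, and for small RNAs 77% and 93%. A feature that did not pass the threshold is therefore not shown to be unchanged. The members, lists and rules were chosen with earlier results of these data known. Per-library values are given for genes with an unadjusted p under 0.05, those with separate groups and the 2 most abundant of each role, for up to 6 genes per further list and for transcripts by smallest p. Transcripts shown for Tpi1, Ldha, Eno1, Eno2 and Gapdh, and the gene Eno1b, were chosen after their values were seen. Alternatives were other pseudocounts, filters, scalings and variance settings, noncoding transcripts added, the replicate number as a block, and leaving out each library. The labels state no pairing by replicate number. Deviations of same-numbered libraries correlated at -0.02 to 0.01 over genes and -0.10 to 0.08 over small RNAs. Taken over all tested features, such a correlation cannot exclude pairing. 1 gene of the further HIF pathway list is counted but not reported by name.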

Additional observations from a re-analysis of the deposited data

How the results depend on the processing

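No direction reversed under any alternative for the 9 members with an unadjusted p under 0.05 or separate groups, the 8 transcripts with the smallest p or either miR-210 arm, whereas Egln1 went from -0.72 to 0.02 without control 1. Of the members, 0 passed the adjusted threshold under each of the 17 settings. Genes past the threshold numbered 7, but 4 with robust variance moderation and 4 to 19 with 1 library left out (19, 16 and 14 without control 1, 2 and 3, and 4, 11 and 15 without PAMK 1, 2 and 3). Members lower at an unadjusted p under 0.05 numbered 4, but 9 with equal library medians and 2 to 4 with 1 library left out, the 2 without control 2. Members higher numbered 3, but 1 with no filter on low values, 1 with equal library medians and 1 to 2 with 1 library left out, the 1 without control 1, without control 2 or without PAMK 1. Transcripts past the threshold numbered 30, but 18 with no filter and 20 to 64 with 1 library left out (64 without control 3, 63 without PAMK 1). Member transcripts numbered 0 to 1 and small RNAs 0 to 134, as given above. With the replicate number as a block, 0 genes (707 at an unadjusted p under 0.05) and 0 transcripts passed, and the block changed no call of a member. Eno2 moved from 1.30 to 0.03 with noncoding transcripts added, and the cause was not tested. Depth is unknown for total RNA, so what small differences it could hide cannot be stated.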
